A study of Mus musculus with 2 samples.

Results

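The 10 genes described here encode inducible and constitutive heat shock chaperones and their partners: Hspa1a, Hspa1b, Hsph1, Bag3, Dnajb1, Hsp90aa1, Hspa8, Dnaja1, Hspe1 and Hspd1. They were found by symbol among the 12638 genes of a single-cell expression matrix, and they had been selected because several of them were higher in lymph nodes of KO than of WT mice. The difference between KO and WT in lymph nodes is therefore given as a description, without a test, and supports nothing here. The tests concern tumours, tissues and cell classes. Those of tissues and classes include the KO node values that the selection used. The KO to WT test over all tumour cells took its spread from all 12 samples, nodes included, with no term for the mouse.

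The cells came from 4 C57Bl6 mice carrying tumours from subcutaneously injected MC38-OVAdim cells, a mouse colon carcinoma line that carries ovalbumin. KO1 and KO2 were labelled as knockouts of Havcr2, the gene of the inhibitory receptor TIM-3. The controls WT1 and WT2 had floxed Havcr2 alleles (Havcr2fl/fl). The labels do not name what deleted the gene, nor the mice's age. Immune cells carrying CD45, enriched for dendritic cells (DC), came from 3 sites of each mouse: its tumour, the node draining that tumour (dLN) and a node that did not drain it (ndLN). The deposited table holds 12458 cells. Every tissue had been digested at 37 °C for 30 min with Liberase TM and DNase I, and the tumour alone also passed a 30% Percoll gradient. All samples were then stained with tagged CD45 antibodies, and droplet channel 1 held the 3 tissues of KO1 and WT1, channel 2 those of KO2 and WT2.

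Samples held 473 to 1691 cells and 3031124 to 28498154 unique molecular identifiers (UMIs, each standing for 1 captured RNA molecule). The median depth per cell was 13877 to 16751.5 UMIs in tumours and 3778 to 5285 in nodes. Havcr2 was lower under the KO label in every tissue. Tumours of KO1 and KO2 had 0.259 and 0.150 UMIs per 10000, against 0.737 and 0.839 in those of WT1 and WT2. Cells were gated by marker genes into classes called "like" a cell type. B-like, CD4 T-like, CD8 T-like, mature DC-like and plasmacytoid DC (pDC)-like cells numbered 20 or more in both nodes of all 4 mice, and macrophage-like and monocyte-like cells in all 4 tumours. Havcr2 averaged 0.0451 UMIs per 10000 in KO and 0.592 in WT macrophage-like tumour cells. Monocyte-like tumour cells had 0.723 in KO and 1.33 in WT mice. As mean log2(1 + UMIs per 10000), KO minus WT was -0.51 in macrophage-like cells (limma adjusted p = 0.00335). It was -0.35 in monocyte-like cells (limma adjusted p = 0.148). These are RNA levels, and whether the loss differed between the classes was not tested. With 2 mice per genotype, p-values rest on the spread between few animals.

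Heat shock proteins bind unfolded or nascent polypeptides and keep them from aggregating. The HSP70 proteins, here Hspa1a, Hspa1b and Hspa8, hold clients in cycles of ATP hydrolysis. J-domain proteins such as Dnajb1 and Dnaja1 load those clients, and the nucleotide exchange factors Hsph1 and Bag3 release them. Hsp90aa1 encodes the stress-inducible cytosolic HSP90, which matures kinases and receptors, and Hspd1 with its lid Hspe1 forms the folding chamber of mitochondria. After heat or other proteotoxic stress, the transcription factor HSF1 binds repeats of the bases GAA and TTC in the promoters of inducible members and raises their transcription, while Hspa8 is made in unstressed cells as well. Warm enzymatic digestion is itself known to induce heat shock and immediate early genes.

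The promoters are shown because the inducible HSP70 pair has nearly identical upstream sequence and because the mitochondrial pair shares 1 region. Sequences are RefSeq's, build GRCm38.p6, which has the coordinates of mm10. Hspa1a lies at chr17:34969359-34972156 and Hspa1b at chr17:34956429-34959238, both on the minus strand and 10120 bases apart. The 250 bases before their starts were identical at 247 positions (98.8%). Capitals mark the pattern GAANNTTC, which starts 104 bases upstream of both genes. The windows run from 150 to 51 bases before the start, at chr17:34972207-34972306 for Hspa1a and chr17:34959289-34959388 for Hspa1b, and are identical in all 100 bases:
Hspa1a: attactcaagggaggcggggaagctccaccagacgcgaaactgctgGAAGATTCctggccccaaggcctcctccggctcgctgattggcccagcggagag
Hspa1b: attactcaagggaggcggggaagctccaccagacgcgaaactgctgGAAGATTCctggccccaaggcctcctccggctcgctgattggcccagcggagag

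Hspe1 and Hspd1 lie head to head on chromosome 1, on the plus and minus strand, and their annotated spans share 96 bases. The 30 bases at chr1:55088056-55088085, which run from 92 to 63 bases before the Hspe1 start, hold alternating TTC and GAA repeats, each 2 bases from the next (capitals):
Hspe1: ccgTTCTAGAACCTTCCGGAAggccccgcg
The bases in capitals also lie 127 to 144 bases before the second annotated start of Hspd1. A run of 3 such alternating repeats, 13 bases long and starting with either TTC or GAA, was present in 0.466% of 32851 promoters over the 250 bases before the start. The 8-base patterns GAANNTTC and TTCNNGAA, which read the same on both strands and occur within the longer run, were present in 12.8%. Hsph1 had TTCNNGAA 33 bases upstream of its first start, and Dnaja1 had GAANNTTC 124 bases upstream of its first start. Bag3 and Dnajb1 held neither pattern in this window. Hsp90aa1 and Hspa8 were not matched, so 8 of the 10 genes had a sequence. Of the 50-base windows of the Hspa1a transcript in GENCODE M21, 58.8% also occur in Hspa1b, so reads from the 2 genes can be divided between them and their separate values are uncertain.

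In dLN the inducible HSP70 genes stood highest among the 10 in their KO to WT ratio, and this is the pattern the genes were selected on. Hspa1a averaged 7.79 and 10.2 UMIs per 10000 over all dLN cells of KO1 and KO2, against 3.58 and 4.30 in WT1 and WT2. The ratio of the group means was 2.28, and it was 2.17 within channel 1 and 2.37 within channel 2. Hspa1b had 1.84 and 2.45 UMIs per 10000 in KO mice and 0.929 and 1.23 in WT mice. Every KO mouse lay above every WT mouse for both genes.

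Among the co-chaperones, Dnajb1 had 6.13 and 5.46 UMIs per 10000 in KO dLN, against 3.75 and 4.48 in WT dLN. Hsph1 had 1.68 and 1.53 in KO dLN and 0.833 and 1.19 in WT dLN, a ratio of 1.59. Bag3 and Hsp90aa1 had ratios of 1.26 and 1.30, and the constitutive Hspa8 had 1.15. Hspd1 and Hspe1 had ratios of 1.24 and 1.18. Dnaja1 was the only one of the 10 whose genotypes overlapped in dLN, with 6.26 and 5.48 in KO mice and 4.83 and 5.82 in WT mice. The other 9 genes had every KO mouse above every WT mouse, as did 32.1% of all 7546 genes measured in dLN. The median KO minus WT difference was 0.23 on the scale of mean log2(1 + UMIs per 10000) for the 10 genes and 0.00 for all genes. Of a wider chaperone list, 44 genes were measured in dLN. Every KO mouse lay above every WT mouse for 18 of them and below for 3, and their median difference was 0.02. Of all 7546 genes 1310 lay below.

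The pattern had another composition in ndLN. Hspa1a had 3.72 and 6.04 UMIs per 10000 in KO ndLN and 3.94 and 4.35 in WT ndLN, so that KO1 lay below both WT mice and KO2 above them. Hspa1b likewise overlapped. The 5 genes with both KO mice above both WT mice were Hsph1, Dnajb1, Hspa8, Dnaja1 and Hspd1, against 19.5% of all 7408 genes. Dnaja1, which overlapped in dLN, had 6.53 and 9.63 in KO ndLN and 4.46 and 6.34 in WT ndLN, a ratio of 1.5. Bag3 had both KO mice below both WT mice there, at 0.329 and 0.353 against 0.356 and 0.372 (a ratio of 0.937), but this direction turned when the cell classes were given equal weight (a ratio of 1.2).

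**Figure D1:**
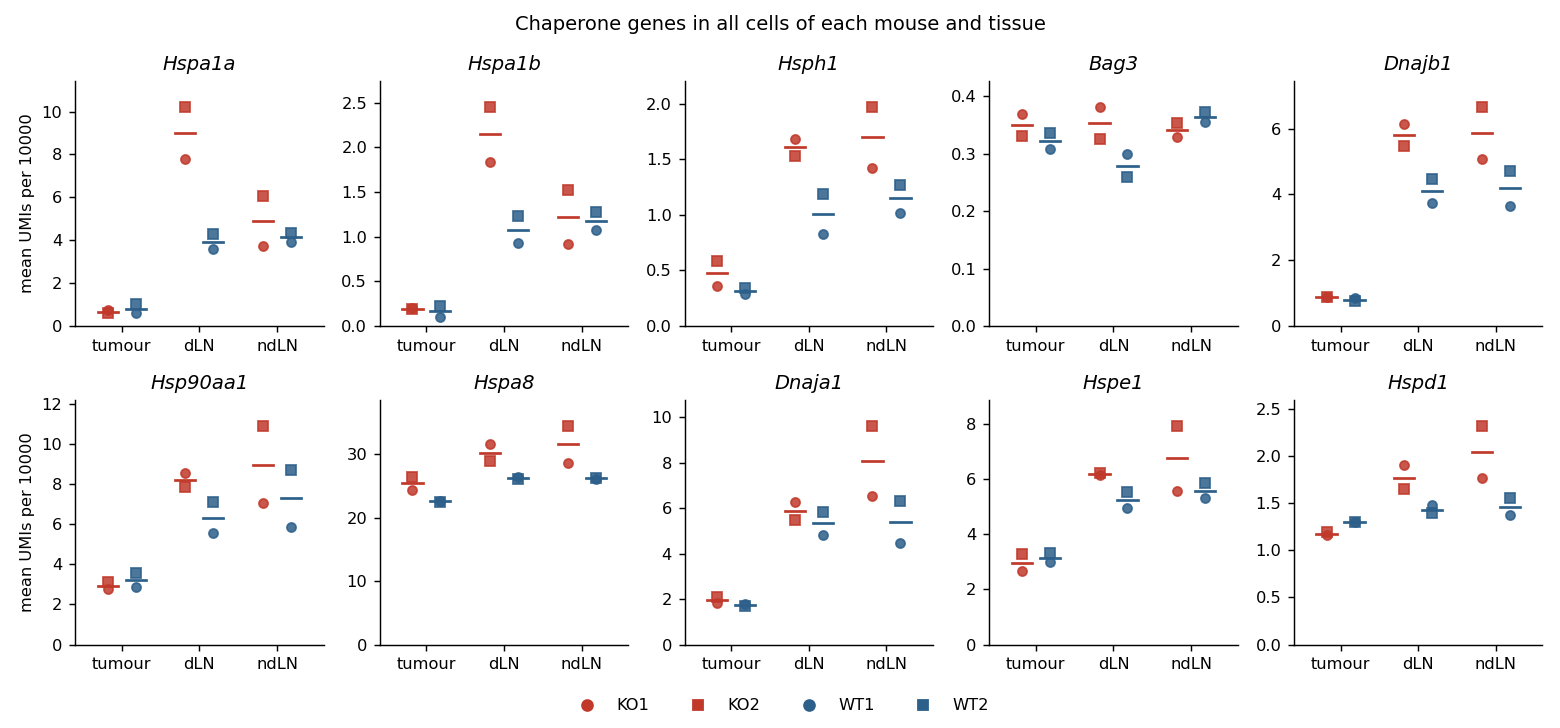
Mean UMIs per 10000 of each gene over all cells of a sample (vertical axes, linear, different for each gene), by tissue, with KO mice in red to the left of WT mice in blue; circles are channel 1, squares channel 2 and bars the mean of 2 mice. In dLN the red points of 9 genes lie above all blue points, and in tumours Hspa1a is at 0.593 to 1.02 in all 4 mice.

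The makeup and depth of the node cells moved with genotype too. B-like cells were 31.6% and 52.6% of KO dLN cells and 21% and 23.8% of WT dLN cells, and mature DC-like cells 4.32% and 1.92% against 19.2% and 15.6%. When the 5 node classes were given equal weight, an alternative added after seeing the data, 7 of the 10 genes had every KO above every WT mouse in dLN and 3 in ndLN. Hspa1a was then at 7.61 and 9.73 in KO dLN against 3.87 and 4.82 in WT dLN. Median depth was lower in KO dLN, at 4256.5 and 3778 UMIs per cell against 5285 and 4726. The median mitochondrial share was 2.61% and 2.81% in KO dLN and 2.50% and 2.77% in WT dLN.

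Immediate early genes, which tissue digestion can induce, were measured beside them. In dLN, Jun, an AP-1 subunit, had 3.73 and 4.55 UMIs per 10000 in KO mice against 2.00 and 1.79 in WT mice. Fos, its partner, had 5.98 and 3.73 in KO mice and 2.44 and 2.52 in WT mice, and the phosphatase gene Dusp1 had 4.55 and 3.49 against 3.07 and 2.92. Of 16 dissociation-associated genes, 8 had every KO mouse above every WT mouse in dLN, against 32.1% of all genes. In ndLN 1 did, against 19.5% of all genes, and 2 had every KO mouse below. The remaining genes overlapped in dLN, with KO to WT ratios from 0.903 (Nfkbia), 0.918 (Socs3) and 0.96 (Klf6) up to 1.43 (Ier3). Hsf1, the transcription factor itself, had 0.393 and 0.362 UMIs per 10000 in KO dLN and 0.376 and 0.283 in WT dLN. Genes listed as markers of epithelial, stromal and endothelial cells (Epcam, Krt18, Dcn, Pecam1 and Cdh5) summed to 0.766 and 0.835 UMIs per 10000 in KO dLN and 0.693 and 0.668 in WT dLN. The cells carried CD45, so this sum is no measure of non-immune cells. Pecam1 alone made up most of each sum, with 0.575 and 0.691 in KO and 0.427 and 0.505 in WT dLN. Epcam was lower in KO dLN (0.116 and 0.102 against 0.197 and 0.126), and Krt18, Dcn and Cdh5 overlapped. Cdh5 had 0.0521 and 0.0349 in KO and 0.0504 and 0.0269 in WT dLN. The part of cell makeup, depth, digestion and cells with such markers in the genotype difference was not tested. KO and WT cells shared each channel.

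Cell by cell, the share with any Hspa1a UMI in dLN was 57.8% and 60.7% in KO mice and 38.2% and 42.0% in WT mice. After each cell was thinned to 1000 UMIs, leaving out 9 to 14 cells a sample, the shares were 35.1% and 39.9% in KO dLN and 18.2% and 22.3% in WT dLN. Tumour cells from the same channels, thinned alike, had 3.77% and 3.62% in KO and 3.40% and 5.03% in WT mice. In mature DC-like cells of dLN, the median cell of KO1 had 10.9 and that of KO2 7.95 Hspa1a UMIs per 10000, while the medians of WT1 and WT2 were 0.793 and 0. In B-like cells of dLN the upper quartile was 15.9 and 17.9 in KO mice and 5.03 and 8.76 in WT mice.

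Mature DC-like cells of dLN, the migratory DC that present antigen to T cells, had KO to WT ratios of 0.992 to 2.97 for the 10 genes. Hspa1a had 13 and 18.1 UMIs per 10000 in KO mice, against 5.72 and 4.75 in WT mice. Dnajb1 had 1.55 and 2.19 against 0.777 and 0.558, Bag3 0.955 and 1.37 against 0.383 and 0.466, and Hsp90aa1 5.19 and 5.43 against 2.38 and 2.24. These 4 genes had KO to WT ratios of 2.97, 2.80, 2.74 and 2.30. Hspa8 overlapped here, at 27.2 and 28.4 in KO and 28.3 and 27.8 in WT mice, while Dnaja1, which overlapped over all dLN cells, did not (a ratio of 1.44). So 9 of 10 had both KO mice above both WT mice, against 15.5% of all genes in that class and node, and of the 16 dissociation genes 14 did. The wider chaperone list went the other way more often, with 5 of 44 genes above and 14 below (median difference -0.07). Of all 7289 genes 1128 lay above and 1803 below. The KO values rest on 44 and 28 cells, against 219 and 165 in WT mice. In ndLN the count was 4 of 10, against 11.9% of all genes, and Hspa1a was at 4.55 and 14.5 in KO and 4.96 and 6.61 in WT mice. Of the wider chaperone list 2 of 42 genes lay above there and 10 below, and of all 6738 genes 1522 lay below.

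In B-like cells the genotypes parted for the inducible HSP70 pair, Hsph1 and Dnajb1. In dLN Hspa1a had 10.7 and 12.7 UMIs per 10000 in KO and 4.57 and 7.03 in WT mice, and 4 of the 9 genes that passed the detection filter (Hspa1a, Hspa1b, Hsph1 and Dnajb1) did not overlap, against 23.9% of all genes. Hsp90aa1 had 11 and 9 in KO and 8.96 and 10.8 in WT B-like cells, which overlap. Bag3 had UMIs in 2.53% of B-like cells and did not pass the filter. In ndLN the count was 2 of 9 (Hspa8 and Hspd1), against 16.0% of all genes.

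In CD8 T-like cells of dLN, Hspa1a had 2.43 and 2.61 UMIs per 10000 in KO and 1.03 and 1.26 in WT mice, and 4 of 10 genes (Hspa1a, Hspa1b, Hspa8 and Hspd1) had KO above WT, against 20.8% of all genes. Bag3 had both KO mice below both WT mice there, at 0.18 and 0.144 against 0.215 and 0.232. In CD8 T-like cells of ndLN the count was 7 of 10, against 15.3%, but Hspa1b had both KO mice below both WT mice (a ratio of 0.786) and Hspa1a was at 1.44 and 1.08 in KO and 1.25 and 1.25 in WT mice. In CD4 T-like cells Hspa8 was the 1 of 10 in dLN, against 17.9% of all genes, and Hsph1, Hspa8 and Dnaja1 were the 3 of 10 in ndLN, against 15.8%. Bag3 had both KO mice below both WT mice in CD4 T-like cells of dLN, at 0.266 and 0.269 against 0.480 and 0.443 (a ratio of 0.579). The difference between the subsets was not tested.

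In pDC-like cells, the interferon-producing DC, 6 of 10 genes had KO above WT in dLN, against 16.8% of all genes, and 2 of 10 in ndLN, against 17.2%. Bag3 had both KO mice below both WT mice in pDC-like cells of ndLN (a ratio of 0.753). Dnajb1 had 11.5 and 10.4 UMIs per 10000 in KO pDC-like cells of dLN and 5.25 and 6.80 in WT ones. Hsph1 in ndLN had 2.22 and 2.82 in KO and 0.730 and 0.618 in WT mice, a ratio of 3.74, from 24 to 37 cells a sample. Across these classes and nodes, Hspa1a in dLN was separated by genotype in 4 of the 5 classes, CD4 T-like cells being the exception (2.6 and 4.30 in KO, 1.43 and 3.16 in WT), and in ndLN in 0 of 5.

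**Figure D2:**
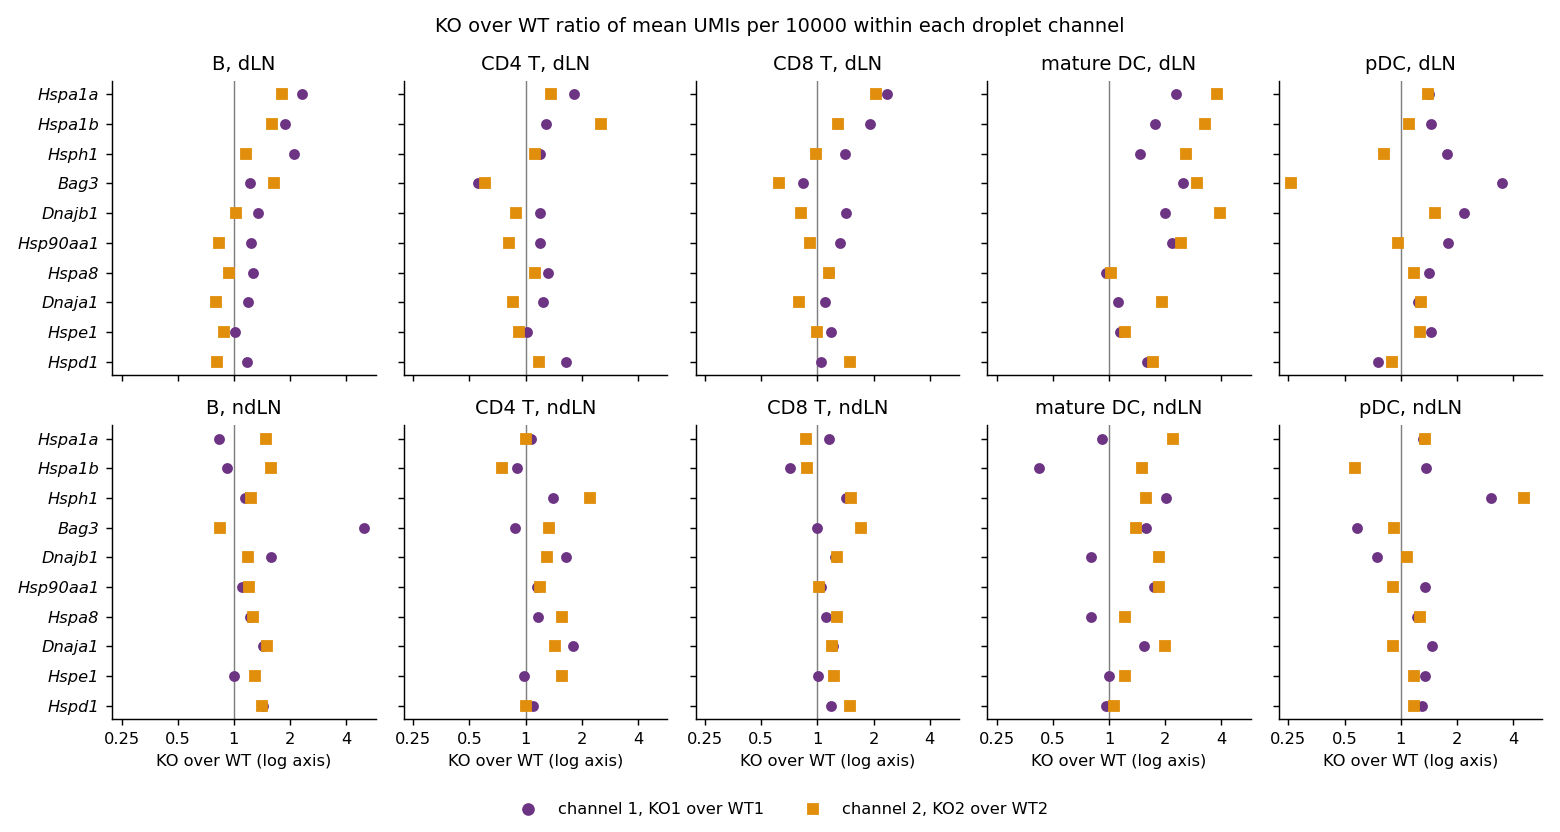
KO over WT ratio of mean UMIs per 10000 (horizontal, log axis) for each gene within droplet channel 1 (circles, KO1 over WT1) and channel 2 (squares, KO2 over WT2), by cell class, with dLN in the upper and ndLN in the lower row; the grey line is a ratio of 1. In mature DC-like cells of dLN the points of all genes but Hspa8 lie right of the line, with Hspa1a at 2.28 and 3.80. Bag3 in B-like cells did not pass the detection filter.

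Conventional DC reached 20 cells in some mice only. Among dLN cells gated as cDC1-like, which cross-present antigen, Hspa1a UMIs were found in 88.1% of 42 KO1 cells and 88.9% of 36 KO2 cells, against 68.6% of 35 WT1 cells. Thinned to 1000 UMIs the shares were 50.0% and 44.4% in KO and 28.6% in WT1 cells. WT2 had 16 such cells and is not set beside them. Of dLN cells gated as cDC2-like, another conventional DC class, only KO2 had 20 or more. There the genotypes overlapped, with Hspa1a UMIs in 89.5% of 19 KO1 and 95.0% of 40 KO2 cells. The WT shares were 100% of 14 WT1 and 87.5% of 8 WT2 cells.

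Whether the genes were found in the same cells was read by setting cells with an Hspa1a UMI against those without. In B-like cells of dLN, cells with an Hspa1a UMI had more Dnajb1 than cells without in every mouse, at 8.53 against 5.04 UMIs per 10000 in KO1, 6.74 against 4.48 in KO2, 6.27 against 4.44 in WT1 and 6.38 against 4.78 in WT2. Hsph1 and Hsp90aa1 were also higher beside Hspa1a in all 4 mice, whereas Hspd1 was lower in all 4 (ratios of 0.727 to 0.970) and Dnaja1 was lower in 3 of 4 (0.755, 0.893 and 0.977, against 1.11 in WT1). In mature DC-like cells of dLN, Hsp90aa1 had 5.37 against 3.37 in KO1, 7.17 against 1.74 in KO2, 3.40 against 1.32 in WT1 and 3.31 against 1.19 in WT2, although only 4 KO1 and 9 KO2 cells lacked Hspa1a. In CD8 T-like cells Dnajb1 was lower in cells with Hspa1a in 3 of 4 mice, with means of 7.16 against 6.37 in KO1, 3.56 against 4.49 in KO2, 4.10 against 4.85 in WT1 and 3.84 against 5.41 in WT2. Dnaja1 and Hspa8 were lower beside Hspa1a in all 4 mice in these cells (ratios of 0.606 to 0.847 and 0.919 to 0.962), and Bag3 was higher in all 4 (1.13 to 2.14). Hspa1b was higher beside Hspa1a in all these classes and mice, but their reads can be divided between the copies. Cells of a mouse are not replicates, so these values are descriptions. Depth differed too: in mature DC-like cells the median was 9149.5 UMIs with and 6912 without Hspa1a in WT1, and 8160.5 and 7349 in WT2. It was 7598 with and 3712.5 without in KO1, and ran the other way in KO2, at 4138 and 6009.

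Across the mouse means of 10 class and node combinations, each centred on its 4 mice, all 7505 genes were ranked by Pearson correlation with the mean of the 10. The 40 points share mice, channels and the scaling to cell totals. They also hold the KO and WT node values that the genes were selected on, so a high rank can restate that contrast. The 8 highest outside the 10 genes, the wider chaperone list and the dissociation list held ranks 8 to 21, and were Nr4a3 (r = 0.761), Dynll1 (0.753), Baz1a (0.740), Nr4a1 (0.732), Marveld1 (0.708), Ppp1cb (0.708), Oaz1 (0.700) and Med13l (0.689). Nr4a1 and Nr4a3 are immediate early nuclear receptors. Of the dissociation genes, Dusp1 had 0.654, Fos 0.618 and Jun 0.517. The wider chaperone list ran from -0.498 for Cct2, a subunit of the cytosolic chaperonin, to 0.835 for Hsp90ab1, the constitutive HSP90. Hspa5, the HSP70 of the endoplasmic reticulum, had 0.513, the J-domain gene Dnaja2 -0.441 and Hsf1 -0.211.

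In tumours no KO to WT difference of the 10 genes passed the test. By the count used for nodes, 4 of 10 genes (Hsph1, Dnajb1, Hspa8 and Dnaja1) had every KO above every WT mouse. Hspd1 was the 1 gene with every KO below. Of all 9488 genes 1424 lay above and 1943 below. Hspa1a had 0.737 and 0.601 UMIs per 10000 in KO tumours and 0.593 and 1.02 in WT tumours, so the groups overlapped. On the scale of mean log2(1 + UMIs per 10000) its KO minus WT difference was 0.03 with a 95% interval of -0.25 to 0.30 (limma, adjusted p = 0.999). Hspa8 had 24.4 and 26.5 in KO tumours and 22.7 and 22.5 in WT tumours. It had the smallest p of the 10, with a difference of 0.22 (SE 0.0977, interval 0.01 to 0.43, adjusted p = 0.547), and was the 1 gene of the 10 with an unadjusted p under 0.05. Limma-voom on summed UMIs passed 0 of 10, with or without adjustment. Over all genes 1.08% were called, 80 higher and 22 lower, or 4 higher and 7 lower by limma-voom.

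Macrophage-like cells made up 51.2% to 64.5% of tumour cells. There, Hspd1 had 1.19 and 1.14 UMIs per 10000 in KO and 1.40 and 1.57 in WT mice, a difference of -0.14 (SE 0.0513, limma adjusted p = 0.675). Hsp90aa1 was likewise lower without overlap, at 2.54 and 2.75 in KO against 2.87 and 3.57 in WT mice (-0.12, SE 0.0929, adjusted p = 0.809). Bag3 (0.382 and 0.41 against 0.345 and 0.321) and Hspa8 (23.7 and 25.6 against 22.5 and 23.4) were higher without overlap. So 2 of the 10 genes lay above and 2 below, as did 1365 and 2253 of all 9676 genes. None of the 10 genes passed in these cells by limma or limma-voom, and by each method 1 gene was under an unadjusted p of 0.05. Over all genes 0.031% were called. In monocyte-like cells 0 of the 9 genes that passed the filter were called, against 0.025% of all genes, and again 1 gene by each method was under an unadjusted p of 0.05. Both KO mice lay above both WT mice for 4 of the 9 (Dnajb1, Hspa8, Dnaja1 and Hspd1) and below for 0. Of all 8002 genes 1335 lay above and 1427 below. Hspa8 there had 27.6 and 33.3 in KO against 25.1 and 23.8 in WT mice, a difference of 0.30 (SE 0.0916, adjusted p = 0.888, and 0.0409 to 1.0 over the alternatives). Without KO1 its difference was 0.42 and it was the 1 of the 9 genes called. The 95% interval of the Hspa1a difference was -0.08 to 0.12 for macrophage-like cells and -0.17 to 0.13 for monocyte-like ones. Whether the genotype difference of tumour and node differs was not tested, because the genes were selected on the nodes. Dusp1 had a difference of 0.77 in macrophage-like cells (adjusted p = 0.194), and of the wider chaperone list 0 of 45 genes passed in all tumour cells.

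Most of the 10 genes were lower in tumour than in dLN. Averaged over mice, Hspa1a had 0.736 UMIs per 10000 in tumours and 6.46 in dLN and Dnajb1 had 0.838 in tumours and 4.95 in dLN. Of the 10 genes, 8 were lower in tumour than in dLN and 1, Bag3, was higher (limma with the mouse as a term, adjusted p under 0.05), against 18.7% of all 9034 genes lower and 52.8% higher. The median difference was -0.63 for the 10 genes and 0.04 for all genes on the log2 scale. The dLN samples include the KO nodes whose values the genes were selected on, so the selection enters these counts. In the WT mice alone both tumours lay below both dLN for all 8 genes called lower. Hspa8, for instance, had 22.7 and 22.5 in WT tumours against 26.4 and 26.1 in WT dLN. WT tumours had 0.593 and 1.02 of Hspa1a against 3.58 and 4.30 in WT dLN, and 0.837 and 0.754 of Dnajb1 against 3.75 and 4.48.

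Among the HSP70 genes, Hspa1a fell by 1.33 (SE 0.173, adjusted p = 4.29e-04) and Hspa1b by 0.62 (SE 0.0838, adjusted p = 5.22e-04), while the constitutive Hspa8 fell by 0.20 (SE 0.0530, adjusted p = 0.0133) with means of 24.1 in tumours and 28.2 in dLN. Of the co-chaperones, Dnajb1 fell by 1.25 (adjusted p = 2.09e-05), Dnaja1 by 0.92 (3.22e-05) and Hsph1 by 0.46 (1.52e-04). Hsp90aa1 fell by 0.83 (adjusted p = 4.08e-04), with 3.08 UMIs per 10000 in tumours and 7.26 in dLN. The mitochondrial pair parted, with Hspe1 lower by 0.63 on the log2 scale (adjusted p = 2.39e-04) and Hspd1 at -0.03 (interval -0.15 to 0.08, adjusted p = 0.561). Bag3 had nearly equal means, 0.336 in tumours and 0.316 in dLN, and its rise of 0.08 (adjusted p = 0.00206) turned to -0.28 and was not called by limma-voom (adjusted p = 2.89e-05 to 0.182 over the alternatives). The call of Hspa8 was lost without KO1 and without the mouse term (highest adjusted p = 0.0706).

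Of the 16 dissociation genes 10 were higher and 2 lower in tumour, among them Fos at 14.2 UMIs per 10000 in tumours and 3.67 in dLN (a log2 difference of 1.95, SE 0.138, adjusted p = 2.63e-05), Dusp1 at 9.67 and 3.50 (1.28, adjusted p = 3.28e-05) and Jun at 4.12 and 3.02 (0.71, adjusted p = 0.00217). Of the wider chaperone list 18 of 44 genes were higher, led by the endoplasmic reticulum chaperones Hsp90b1 (1.00), Pdia3 (0.95), Pdia6 (0.95) and Calr (0.86) and the unfolded protein response factor Xbp1 (0.81), each with an adjusted p of at most 4.99e-05. The 6 lower ones included Hsp90ab1 (-0.50), the ubiquitin gene Ubb (-0.40), the HSP110 family member Hspa4 (-0.28) and the HSP90 partners Cacybp (-0.16) and Fkbp4 (-0.12). Hsf1 had 0.234 in tumours and 0.354 in dLN (-0.01, adjusted p = 0.516). Over all genes 4770 were called higher and 1687 lower, or 2855 higher and 3078 lower by limma-voom and 6758 higher and 883 lower with a pseudocount of 0.1.

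Tumours held mostly macrophage-like cells and nodes mostly lymphocytes, and the Percoll step was used on tumours alone, so tissue, cell makeup and handling cannot be told apart in this contrast. CD8 T-like cells, the class with 20 cells in both tissues of 3 mice (KO1, KO2 and WT1), were compared as an addition made after seeing the data. Hspa1a had 0.168, 0.0486 and 1.34 UMIs per 10000 in CD8 T-like cells of those tumours, against 2.43, 2.61 and 1.03 in their dLN. KO1 and KO2 lay lower in tumour, and WT1 did not on this linear mean, but did on the mean of log2 values that was tested (0.32 in tumour, 0.45 in dLN). Dnajb1 had 1.79, 0.884 and 2.69 in tumours, against 6.67, 4.12 and 4.69 in dLN, lower in all 3 mice. Of the 10 genes 8 were lower (limma with the mouse as a term), against 6.65% of all genes lower and 29.2% higher, with Dnajb1 at -1.14 (SE 0.119, adjusted p = 9.94e-09), Hsp90aa1 at -0.86 and Hspa1a at -0.65 (SE 0.0979, adjusted p = 5.02e-06). Of the 3 dLN samples in this test, 2 are KO nodes, whose values the genes were selected on, and the Hspa1a values of WT1 lay closer together than those of KO1 and KO2. Bag3 (-0.04, adjusted p = 0.435) and Hspd1 (-0.16, adjusted p = 0.192) were not called. The calls of Hspa1b, Hsph1 and Hspa8 were lost without KO1, leaving 5, and also without a detection filter, those of Hsph1 and Hspa8 without WT1, and that of Hsph1 with a pseudocount of 0.1. Of 15 dissociation genes 7 were higher and 1 lower in these tumour cells, while Fos (0.06), Dusp1 (0.12) and Jun (-0.20) did not pass. Of the wider chaperone list 16 of 44 genes were higher and 4 lower.

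**Figure D3:**
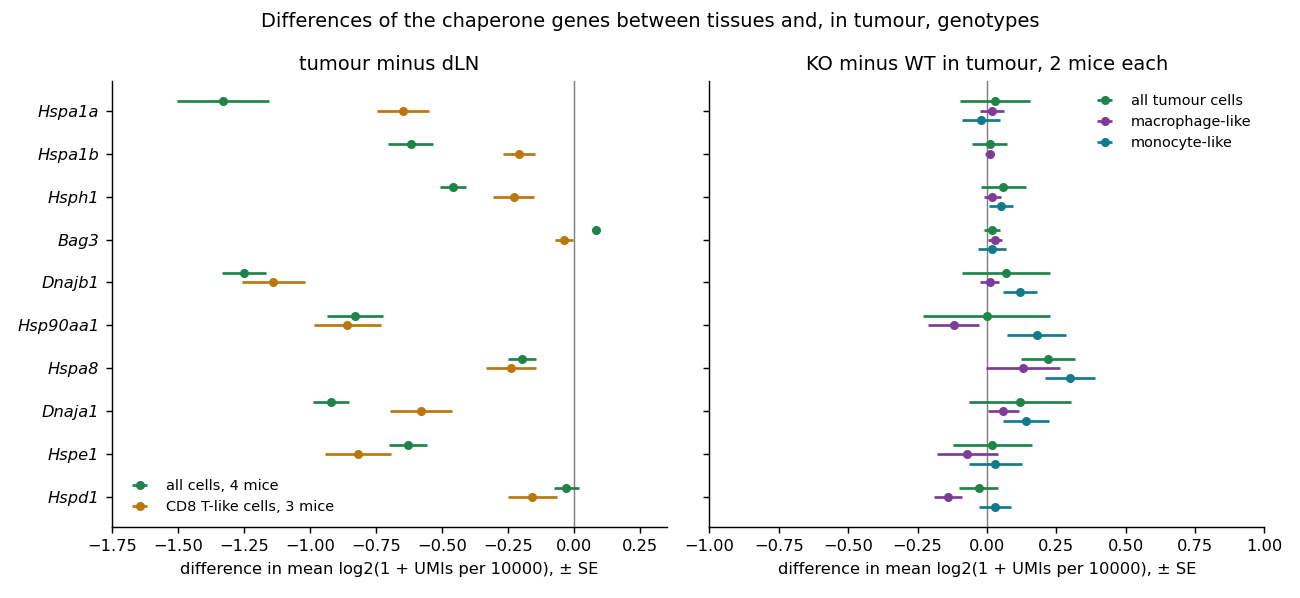
Difference in mean log2(1 + UMIs per 10000) with its SE (horizontal), left for tumour minus dLN in all cells of 4 mice (green) and in CD8 T-like cells of 3 mice (orange), right for KO minus WT in tumours, over all cells (green), macrophage-like (purple) and monocyte-like cells (blue); Hspa1b did not pass the filter in monocyte-like cells. On the left 9 genes lie below 0 in both colours, Bag3 being the exception, and on the right the points lie between -0.14 and 0.30.

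Between dLN and ndLN none of the 10 genes passed in any class. Over all cells Hspa1a averaged 6.46 UMIs per 10000 in dLN and 4.51 in ndLN (0.30, interval -0.04 to 0.64, limma adjusted p = 0.721), and Dnaja1 5.6 in dLN and 6.74 in ndLN (-0.23, interval -0.54 to 0.07, adjusted p = 0.721). The count was 0 of 10 over all cells, with 0 under 0.05 before adjustment (2 with limma-voom), and 0.0% of all genes were called. It was likewise 0 of 9 in B-like cells (0.0% of genes called; 2 under 0.05 before adjustment, and 5 with limma-voom), 0 of 10 in CD4 T-like cells (0.0%; 3 and 4), in CD8 T-like cells (0.0147%; 4 and 4), in mature DC-like cells (0.0%; 0 and 0) and in pDC-like cells (0.0375%; 1 and 6). Limma-voom called 0 after adjustment in each.

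In B-like cells Hspa1a had 8.74 in dLN and 5.75 in ndLN (0.38, SE 0.101, adjusted p = 0.536) and Hspa1b 2.34 and 1.46 (0.27, SE 0.0600, adjusted p = 0.536). Without WT1, where dLN had 4.57 and ndLN 5.32 of Hspa1a, both were called, with 0.55 and 0.34 (adjusted p of Hspa1a 4.86e-04 to 0.995 over the alternatives). In CD8 T-like cells Hspa1a had a difference of 0.21 (SE 0.0507, adjusted p = 0.112), at 1.83 in dLN and 1.25 in ndLN, and was called without WT1, without WT2, and without cells of 5% or more mitochondrial UMIs. Without KO1, Hsph1, Hsp90aa1 and Dnaja1 were called lower in dLN CD8 T-like cells instead. In CD4 T-like cells Hspe1 (-0.49, adjusted p = 0.275) was called without WT2. Over all cells, Hspa1a had 7.79 and 10.2 UMIs per 10000 in KO dLN and 3.72 and 6.04 in KO ndLN, while WT dLN had 3.58 and 4.30 and WT ndLN 3.94 and 4.35. In B-like cells its dLN and ndLN values were 10.7 and 4.42 in KO1, 12.7 and 7.93 in KO2 and 7.03 and 5.31 in WT2. The KO node values that the genes were selected on enter every comparison of dLN with ndLN. They weigh more when a WT mouse is left out.

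Within dLN the 5 classes differed in which chaperones they held. Mature DC-like cells were low in Dnajb1, Dnaja1, Hsp90aa1, Hsph1, Hspe1 and Hspd1, and over all 4 mice they were higher in Hspa1a, Hspa1b and Bag3. Against the mean of the other 4 classes, 3 of 10 genes were higher and 6 lower (limma over 20 class means with the mouse as a term), against 21.5% of 7063 genes higher and 41.1% lower. Hspa1a had 10.4 UMIs per 10000 in mature DC-like cells and 5.53 in the others (0.80, SE 0.131, adjusted p = 1.06e-05), and Bag3 0.793 and 0.274 (0.34, SE 0.0570, adjusted p = 1.44e-05). The KO values on which the genes were selected enter these 3 higher calls. In the WT mice alone the mean of mature DC-like cells was 5.24 for Hspa1a, below B-like (5.8) and pDC-like cells (7.23), and 0.424 for Bag3, below CD4 T-like (0.461) and pDC-like cells (0.497). For Hspa1b, WT1 and WT2 had 1.06 and 1.17 in mature DC-like cells, below their B-like cells (1.49 and 1.92) and pDC-like cells (1.49 and 2.01). Dnajb1 had 1.27 in mature DC-like cells and 6.02 in the others (-1.43, SE 0.104, adjusted p = 1.08e-11) and Dnaja1 1.70 and 5.74 (-1.25, adjusted p = 4.00e-11). Hsp90aa1 (-0.96), Hspe1 (-0.70), Hspd1 (-0.56) and Hsph1 (-0.46) were also lower. KO dLN held a smaller share of mature DC-like cells, so the selection can favour genes low in these cells. In the WT mice alone the 6 lower genes also had their lowest class mean in mature DC-like cells. The call of Hspa1b (0.17) was lost by limma-voom, without KO1, without KO2, without cells of high mitochondrial share and without the filter (adjusted p = 0.00932 to 0.287), and Hspa8 (-0.12, not called) was called higher by limma-voom at 0.34. Of the wider list 26 of 44 genes were lower, Hsf1 among them (0.0850 in mature DC-like cells, 0.374 in the others, -0.22, adjusted p = 2.77e-06) and Hspa5 (-1.03).

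B-like cells had 8 genes higher and 1 lower, against 10.9% of genes higher and 30.3% lower. KO dLN held a larger share of B-like cells, so the selection on KO nodes can favour genes high in these cells. In the WT mice alone B-like cells had the highest mean of the 5 classes for Hsph1, Hsp90aa1, Hspa8, Dnaja1 and Hspe1. For Hspa1a (5.8 against 7.23), Hspa1b (1.71 against 1.75) and Dnajb1 (5.46 against 6.03) they lay below pDC-like cells. Hsp90aa1 had 9.93 UMIs per 10000 in B-like cells and 6.44 in the others (0.64, SE 0.146, adjusted p = 9.77e-04), and Dnaja1 7.19 and 4.37 (0.61, adjusted p = 1.73e-05). Bag3 was lower, at 0.0689 and 0.455 (-0.25, adjusted p = 8.54e-04). The calls of Hspa1a (0.42) without KO2 or WT2, of Dnajb1 (0.30) without WT1 or WT2, and of Hspa8 (0.20) in 7 alternatives did not hold. Hspd1 (0.16, not called) was called higher by limma-voom at 0.62 (adjusted p = 0.00148) and without KO2 at 0.21. The split over all genes was 769 higher and 2141 lower, or 2006 and 1237 by limma-voom and 566 and 3015 with a pseudocount of 0.1.

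pDC-like cells had 5 genes higher and 1 lower, against 44.7% of genes higher and 15.1% lower. Dnajb1 had 8.48 UMIs per 10000 in pDC-like cells and 4.22 in the others (0.75, SE 0.104, adjusted p = 1.04e-06), Hspa1a 8.69 and 5.96 (0.69, adjusted p = 7.58e-05), and Dnaja1 3.27 and 5.35 (-0.42, adjusted p = 7.67e-04). Hsp90aa1 (0.50) was not called without cells of high mitochondrial share. Hspa8 was called lower by limma-voom (-0.28, adjusted p = 0.00209) and without KO2 (-0.24), Hsph1 was called higher with a pseudocount of 0.1 (0.36) and without KO2 (0.14), and Hspd1 was called higher with that pseudocount (0.39). pDC are secretory cells, and the endoplasmic reticulum genes of the wider list were the most raised there, with Hsp90b1 at 11.4 and 2.13 (2.31, adjusted p = 9.62e-18) and Xbp1 at 5.71 and 0.471 (2.16, adjusted p = 3.30e-20). Of that list 23 of 44 were higher and 2 lower.

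Both T-like classes were low in the inducible HSP70 genes. Hspa1a had 1.83 UMIs per 10000 in CD8 T-like cells and 7.67 in the others (-1.06, SE 0.131, adjusted p = 3.05e-07), and 2.87 in CD4 T-like cells and 7.41 in the others (-0.84, adjusted p = 1.19e-05). Hspa1b was lower as well in both, by 0.47 and 0.40 on the log2 scale. CD8 T-like cells had 4 genes higher and 2 lower, against 11.9% of genes higher and 25.6% lower. The higher ones were Dnaja1 (0.47), Hspe1 (0.43), Dnajb1 (0.31, lost without KO1, WT1 or WT2) and Hspd1 (0.28, adjusted p = 0.00210). In CD8 T-like cells Hsph1 was also called higher by limma-voom (0.31) and Bag3 lower with a pseudocount of 0.1 (-0.38). CD4 T-like cells had 1 higher, Dnaja1 (0.59, adjusted p = 2.71e-05), and 3 lower, against 15.7% of genes higher and 18.4% lower. The third lower gene, Hspe1 (-0.43), was lost by limma-voom, which called Hspd1 (0.98, adjusted p = 1.94e-05) and Hsph1 (0.39, adjusted p = 0.0130) higher, so that 3 were higher and 2 lower. In CD4 T-like cells 1106 genes were called higher and 1302 lower, or 2036 and 756 by limma-voom and 813 and 1486 with a pseudocount of 0.1. Depth differed between the classes, with median UMIs per cell in dLN of 2936 to 3417 in B-like, 4127 to 4606 in CD4 T-like, 4961.5 to 5628 in CD8 T-like, 5388 to 8267 in mature DC-like and 8632 to 9057 in pDC-like cells, and its part in these differences was examined only through limma-voom.

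**Figure D4:**
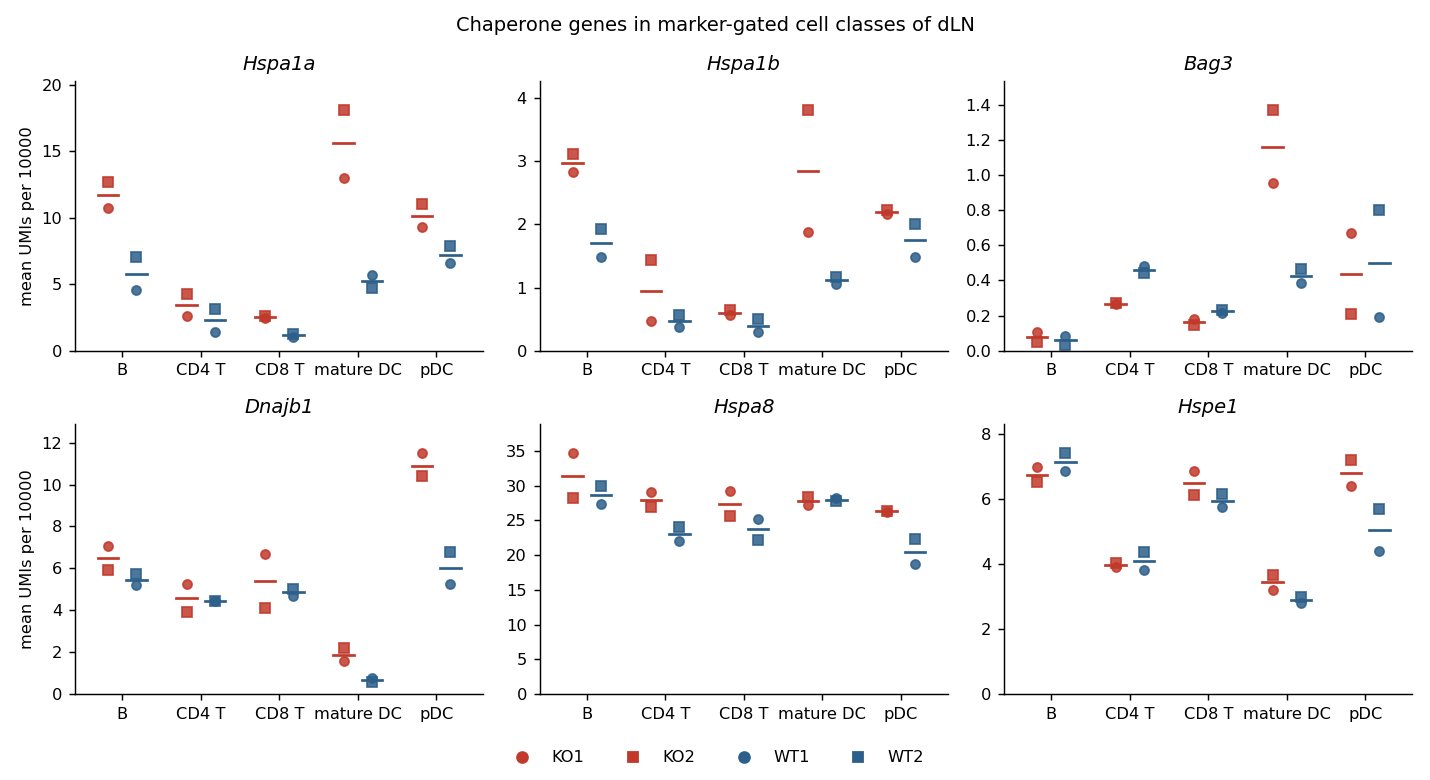
Mean UMIs per 10000 of 6 of the genes in 5 gated classes of dLN (vertical axes, linear, different for each gene), with KO mice in red to the left of WT mice in blue; circles are channel 1, squares channel 2 and bars the mean of 2 mice. Hspa1a is lowest in the T-like classes, Dnajb1 is lowest in mature DC-like cells, and Hspa8 stays between 18.7 and 34.7 in every class and mouse.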

How the data were processed

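The authors deposited natural log values, ln(1 + 10000 × UMIs of a gene / UMIs of the cell), with the mouse and tissue of each cell. Single-cell 5′ libraries were aligned per the submitters' processing notes, which name Cell Ranger 3.0.2 and mm10. How cells, genes and tags were filtered is not given in the sources used here. All values (100%, tolerance 0.01) were whole multiples of 1 UMI, so UMIs were recovered. Cells held 687 to 131217 UMIs, and 65 barcodes occurred in both channels. No cell was removed and no doublet caller was run.

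A cell joined the marker class with the highest mean log2 level if it was 1.5 times the next and 2 markers were detected; T cells were split by Cd4, Cd8a and Cd8b1. This left 10.8% unassigned. A class was used in a sample from 20 cells on, and a gene when 5% of the cells compared had a UMI of it.

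Means per mouse of log2(1 + UMIs per 10000), pseudocount 1, were tested with limma 3.58.1 (trend; R 4.3.3), two-sided, with Benjamini-Hochberg adjustment over all genes at 0.05. Genotype fits pooled the spread over all samples of the class with enough cells; tissue and class fits had the mouse as a term. Only the all-cell fits (KO versus WT tumours, tumour versus dLN, dLN versus ndLN) were run on simulated data. The noise there was independent and normal, so that run speaks to neither cell makeup nor the selection. Nothing says whether mice of a genotype were littermates. The scale understates changes of low genes. No enrichment was tested.

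The members, lists and comparisons were chosen with earlier results of these data known. Named genes are all members, list genes past the threshold (the 5 largest per direction), Hsf1, Fos, Jun, Dusp1 and the 8 most alike genes. Alternatives were limma-voom on summed UMIs, pseudocount 0.1, no filter, no cells of 5% or more mitochondrial UMIs, each mouse left out, and the channel or mouse term.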

Additional observations from a re-analysis of the deposited data

Results flagged for a closer look

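Several genotype ratios pointed in opposite directions in 2 tissues, with every KO mouse on one side of every WT mouse in each. None of these differences was tested, and those that involve a node are on the contrast the genes were selected on. Over all cells, the KO over WT ratio of Hspd1 was 0.904 in tumour, against 1.24 in dLN and 1.40 in ndLN. Bag3 had 1.26 in dLN and 0.937 in ndLN, but with equal class weights its ndLN ratio turned to 1.2, with overlapping mice. In CD8 T-like cells Hspa1b had 1.52 in dLN and 0.786 in ndLN, while Bag3 had 0.725 in dLN and 1.36 in ndLN. Bag3 had UMIs in 8.49% of CD8 T-like cells of dLN and 10.9% of those of ndLN, so its values rest on few molecules, 20 to 54 a mouse except 17 in KO1 ndLN.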

How the results depend on the processing

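Of 1362 values of the 10 genes under alternatives in tested comparisons, 1306 stayed on the same side of the threshold, and 96 of these, none past it, changed sign. A further 32 lost the threshold, 21 gained it and 3 reversed. The 3 were Bag3 in tumour against dLN by limma-voom (-0.28), Hspd1 there with a pseudocount of 0.1 (0.30), and Hspa8 in mature DC-like cells by limma-voom (0.34). Among 8 called genes in tumour against dLN CD8 T-like cells, 5 passed without the detection filter, and 5 to 8 with a mouse left out (1688 to 2719 genes). Genes called between KO and WT tumours numbered 102 over all cells, against 160 with a pseudocount of 0.1, 11 by limma-voom and 15 to 293 with a mouse left out. In macrophage-like cells they numbered 3, and 3 to 388 with a mouse left out. In monocyte-like cells they numbered 2, against 0 without the filter, 13 by limma-voom and 1 to 40 with a mouse left out, with 0 to 1 of the 10 genes. Between dLN and ndLN, leaving out a mouse gave 0 to 19 genes in B-like cells (0 to 2 of the 10), 0 to 4 in CD4 T-like cells (0 to 1), 4 to 39 in CD8 T-like cells (0 to 3), 0 to 4 in mature DC-like cells and 0 to 4 in pDC-like cells. Removing cells of high mitochondrial share gave 1 gene in B-like and 3 in CD8 T-like cells (1 of the 10). Limma-voom gave 5 genes in CD8 T-like, 1 in mature DC-like and 1 in pDC-like cells, a pseudocount of 0.1 gave 1 in pDC-like cells, and no filter gave 0 in CD8 T-like and pDC-like cells. The cause of these changes was not tested. In ndLN 5 genes had every KO above every WT mouse, against 3 with equal class weights and 5 to 9 with a mouse left out, and the Bag3 ratio became 1.2 with equal weights. After thinning, KO minus WT shares of tumour cells with a UMI were -0.52 percentage points for Hspa1a, -0.155 for Hspa1b, -1.2 for Hspe1 and -1.15 for Hspd1, opposite in sign to the unthinned ones. The median of all genes moved to 0.28 in tumour against dLN with a pseudocount of 0.1, where the 10 genes had -0.94, and by limma-voom to -0.43 in mature DC-like and 0.20 in pDC-like cells.

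KO and WT mice of the same number shared a droplet channel. With channel as a replicate block, 166 genes were called in all tumour cells, 228 in macrophage-like and 31 in monocyte-like cells, and 0 of the 10 in each. Without the mouse term, 0 genes were called in CD8 T-like and pDC-like cells between dLN and ndLN.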
